A study of Mus musculus with 36 samples.

Results

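The genes described here are 10 markers of GABAergic interneurons, the inhibitory nerve cells of the hippocampus: Gad1, Gad2, Slc32a1, Sst, Vip, Npy, Cck, Pvalb, Calb2 and Reln. They were chosen by name, not by a rule on their values, from the 24060 genes in the count files, though earlier results of these data were known. All 10 had reads in every RNA library, from 111 to 4663 counts per gene and library, and all 10 were among the 14405 genes that passed the filter on low counts. In the authors' deposited table of 20213 consensus peaks of the histone variant H2A.Z, 13 peaks carried the name of 8 of the 10 genes, and none carried Sst or Vip.

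The animals were C57BL/6J mice aged 2.5 months (young) or 15.5 months (old), with no other genotype in the labels. At each age one group was naive and the other was fear conditioned: 3 shocks (0.5 mA, 2 s each) in a session of 5 min, with the tissue frozen 30 min later. Each of the 4 groups gave 3 RNA libraries and 3 H2A.Z immunoprecipitations from hippocampus, and the inputs were not used. The sources used here give neither sex nor pooling of animals, nor whether replicates are separate animals, so a p-value below reflects the spread among libraries, which may be technical.

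GABAergic interneurons make the transmitter GABA from glutamate with the glutamate decarboxylases GAD67 (Gad1) and GAD65 (Gad2), and the vesicular transporter VGAT (Slc32a1) loads it into synaptic vesicles. They are few beside the pyramidal and granule cells of the hippocampus and fall into subtypes known by their neuropeptides (somatostatin, VIP, NPY, cholecystokinin), by calcium-binding proteins (parvalbumin, calretinin) or by the secreted glycoprotein reelin. Several of these markers are shared with other cells: Cck with pyramidal cells, Calb2 with mossy cells and immature granule cells, and Reln with Cajal-Retzius cells. In bulk tissue, fewer cells of a type and less RNA per cell cannot be told apart.

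The RNA libraries held 9410843 to 13350561 counts. Levels are given in CPM, a gene's counts relative to the TMM-scaled size of its library, and were not compared between genes because no transcript lengths were used. The hippocampal markers Prox1 (dentate granule cells) and Wfs1 (CA1 pyramidal cells) ran from 92.5 to 128 and from 89.4 to 157 CPM. The striatal neuron markers Drd2, which is also listed for mossy cells, and Adora2a ran from 1.31 to 2.25 and from 0.986 to 1.86 CPM. All 9 tested striatal markers together summed to 204 to 234 CPM per library, so others of that list were higher. Fos, a marker of recently active neurons, was higher after training (log2 2.06 over both ages, edgeR adjusted p = 0.00199), and the complement gene C4b was higher in old mice (log2 0.97, edgeR adjusted p = 6.66e-06). Ttr, the leading transcript of the choroid plexus, ran from 24.2 to 2857 CPM. Of all libraries, young naive 81 was highest in choroid plexus transcripts and old conditioned 61 lowest in nuclear-retained RNA. The edgeR comparisons below were therefore also computed without both.

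The DNA just before the start of these genes ranges from poor to rich in CG pairs. The sequences below show richer and poorer windows because H2A.Z peaks lay more often over the richer ones. They are the 200 bases before the start (RefSeq, GRCm38.p6, the assembly called mm10), written 5′ to 3′ on the strand of the gene, with every CG in capitals. Gad1 (chr2:70561929-70562128, plus strand) and Reln (chr5:22344706-22344905, minus strand) stand for the windows under a peak. Sst (chr16:23890845-23891044, minus strand) and Vip (chr10:5639018-5639217, plus strand) had none. Pvalb has a pair of start sites, a first (chr15:78206401-78206600, minus strand) with no peak and a second (chr15:78204238-78204437, minus strand) under one.
Gad1: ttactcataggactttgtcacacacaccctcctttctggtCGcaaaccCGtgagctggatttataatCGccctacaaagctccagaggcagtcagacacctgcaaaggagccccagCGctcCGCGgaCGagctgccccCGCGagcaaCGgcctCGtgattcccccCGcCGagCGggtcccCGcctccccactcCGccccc
Reln: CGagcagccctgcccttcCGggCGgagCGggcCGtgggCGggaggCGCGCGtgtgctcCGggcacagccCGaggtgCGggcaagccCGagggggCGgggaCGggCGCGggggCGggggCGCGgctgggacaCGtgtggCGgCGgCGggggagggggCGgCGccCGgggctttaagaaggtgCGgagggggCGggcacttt
Sst: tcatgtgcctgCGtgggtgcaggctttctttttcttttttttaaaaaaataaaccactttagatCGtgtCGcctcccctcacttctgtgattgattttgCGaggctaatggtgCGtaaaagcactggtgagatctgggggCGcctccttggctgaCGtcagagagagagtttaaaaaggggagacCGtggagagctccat
Vip: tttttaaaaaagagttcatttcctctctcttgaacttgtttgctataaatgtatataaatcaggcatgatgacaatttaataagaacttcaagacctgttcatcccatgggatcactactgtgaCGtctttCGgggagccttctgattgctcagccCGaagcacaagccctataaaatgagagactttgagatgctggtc
Pvalb first start: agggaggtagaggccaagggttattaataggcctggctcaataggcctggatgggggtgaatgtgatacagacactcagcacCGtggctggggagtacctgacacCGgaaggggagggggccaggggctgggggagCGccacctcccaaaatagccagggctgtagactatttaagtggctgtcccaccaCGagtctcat
Pvalb second start: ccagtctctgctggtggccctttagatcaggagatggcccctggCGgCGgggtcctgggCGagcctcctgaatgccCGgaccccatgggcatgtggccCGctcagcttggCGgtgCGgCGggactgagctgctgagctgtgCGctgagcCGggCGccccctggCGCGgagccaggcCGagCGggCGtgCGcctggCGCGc

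RefSeq promoter windows, 300 bases from 250 before to 50 after a start, were found for 9 of the 10 genes and gave 10 windows; Calb2 had no entry. 6 of the 10 windows overlapped an H2A.Z peak of the authors' deposited table: those of Gad1, Gad2, Slc32a1, Npy, Reln and the second start of Pvalb. Over all 32851 promoter windows the share was 40.5%, and over the 13724 windows of genes in the RNA test 76.5%. The ratio of observed to expected CG pairs was 1.01 at Reln, 0.849 at Gad1, 0.732 at the second Pvalb start, 0.693 at Npy, 0.574 at Slc32a1 and 0.543 at Gad2. Among windows with no peak it was 0.379 at Cck, 0.310 at Vip and 0.199 at the first Pvalb start, so these 3 were the poorest in CG. The other window with no peak, that of Sst, had a ratio of 0.707. Of all windows with a ratio of at least 0.6, 90.9% overlapped a peak, against 12.4% of those under 0.6. By this split Sst, Gad2 and Slc32a1 each differed from most windows of their class, as Gad2 and Slc32a1 were under 0.6 and overlapped a peak.

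A motif search on both strands covered the cAMP response element CRE (TGACGTCA), its shorter core (TGACG, which is part of the full one), the TATA box (TATAAA), AP-1 (TGANTCA) and the E-box CAGCTG. The full CRE was in the Sst window and in no other of the 10, with its first base 48 bases before the start, and 1.79% of all promoter windows hold it. It is shown in capitals in the 40 bases around it (chr16:23890869-23890908, minus strand).
Sst CRE: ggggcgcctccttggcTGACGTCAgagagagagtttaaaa
The shorter core, held by 20.8% of all windows, was also in the windows of Gad2, Vip and Cck, 33, 79 and 47 bases before the start. TATAAA, held by 13.6%, was found 3 times at Vip, the nearest 30 bases before the start, and once at Gad1 on the opposite strand. AP-1 and the E-box, held by 7.81% and 16.3% of all windows, were in none of the 10. These matches describe the letters of the windows only.

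In the RNA, the level of each gene is listed for young naive libraries 79, 81 and 83, young conditioned 73, 75 and 77, old naive 67, 69 and 71, and old conditioned 61, 63 and 65, in this order. Gad1 stood at 305, 356 and 321, then 340, 325 and 319, then 342, 331 and 323, then 342, 333 and 333 CPM. Gad2 stood at 172, 186 and 193, then 191, 201 and 196, then 191, 187 and 191, then 185, 185 and 185 CPM. Both decarboxylase genes were nearly level: the highest of the 12 libraries was 1.17 times the lowest for each. Slc32a1 stood at 54.1, 61.5 and 60.9, then 60.2, 65.2 and 58.9, then 63.6, 69.0 and 61.1, then 77.3, 64.1 and 69.7 CPM. Its highest library was 1.43 times its lowest, and young naive 79 was the lowest library for all 3 genes of GABA synthesis and loading.

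By group, Gad1 was 328 ± 26.0 CPM in young naive and 328 ± 11.2 in young conditioned mice, against 332 ± 9.87 in old naive and 336 ± 5.23 in old conditioned mice (SD, n = 3 each). Gad2 was 184 ± 10.8, 196 ± 4.84, 189 ± 2.57 and 185 ± 0.316 CPM in the same order. Neighbours in the order of these levels lay within their summed SDs, apart from the old conditioned and old naive libraries of Gad2, which did not overlap. Slc32a1 was 58.8 ± 4.14, 61.4 ± 3.34, 64.5 ± 4.03 and 70.4 ± 6.60 CPM, each step within the summed SDs. Within groups Gad2 spread less than most genes: its SD of 0.047 on the log2 scale was at the 7.09 percentile of 1086 genes of like level, against the 35.6 percentile for Gad1 and the 55.6 percentile for Slc32a1.

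Among the neuropeptide genes, Sst codes for somatostatin, the peptide of interneurons that contact distal dendrites. It stood at 106, 111 and 116, then 110, 117 and 94.9, then 121, 121 and 102, then 154, 125 and 104 CPM. Old conditioned 61 was its highest library, and the groups overlapped. Vip, the peptide of interneurons that contact other interneurons, stood at 11.8, 13.5 and 9.93, then 14.6, 9.83 and 13.4, then 9.07, 13.3 and 11, then 14.0, 13.7 and 13.1 CPM. Vip had the fewest reads of the 10 genes, and its groups overlapped. Npy, the peptide of neurogliaform and ivy cells among others, stood at 21.8, 16.4 and 21.7, then 22.6, 21.0 and 19.5, then 25.7, 28.4 and 22.6, then 23.9, 26.9 and 22.2 CPM. All 3 old naive libraries lay above all 3 young naive ones for Npy. Cck, the peptide of a class of basket cells and of pyramidal cells, stood at 164, 142 and 152, then 153, 157 and 150, then 156, 176 and 150, then 187, 205 and 154 CPM. Cck was highest in 2 of the 3 old conditioned libraries.

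Pvalb codes for parvalbumin of fast-spiking interneurons and stood at 21.4, 21.8 and 21.3, then 21.9, 22.7 and 25.2, then 22.2, 28.0 and 24.1, then 27.9, 23.2 and 21.2 CPM. Young naive libraries were close together, at 21.5 ± 0.268 CPM (SD, n = 3), and the old groups were wider. Calb2, coding for calretinin of interneuron-selective interneurons, stood at 23.1, 33.4 and 25.1, then 27.2, 34.7 and 27.5, then 21.5, 20.1 and 15.0, then 25.2, 15.2 and 29.0 CPM. Calb2 varied most, 2.31-fold from lowest to highest library, and its within-group SD was at the 98.3 percentile of 2386 genes of like level. Reln, the reelin gene, stood at 110, 143 and 117, then 105, 109 and 131, then 99.4, 107 and 106, then 106, 103 and 97.9 CPM. Reln was highest in young naive 81 and lowest in old conditioned 65. Sst also spread widely within groups, at the 95.9 percentile of 1622 genes of like level.

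**Figure D1:**
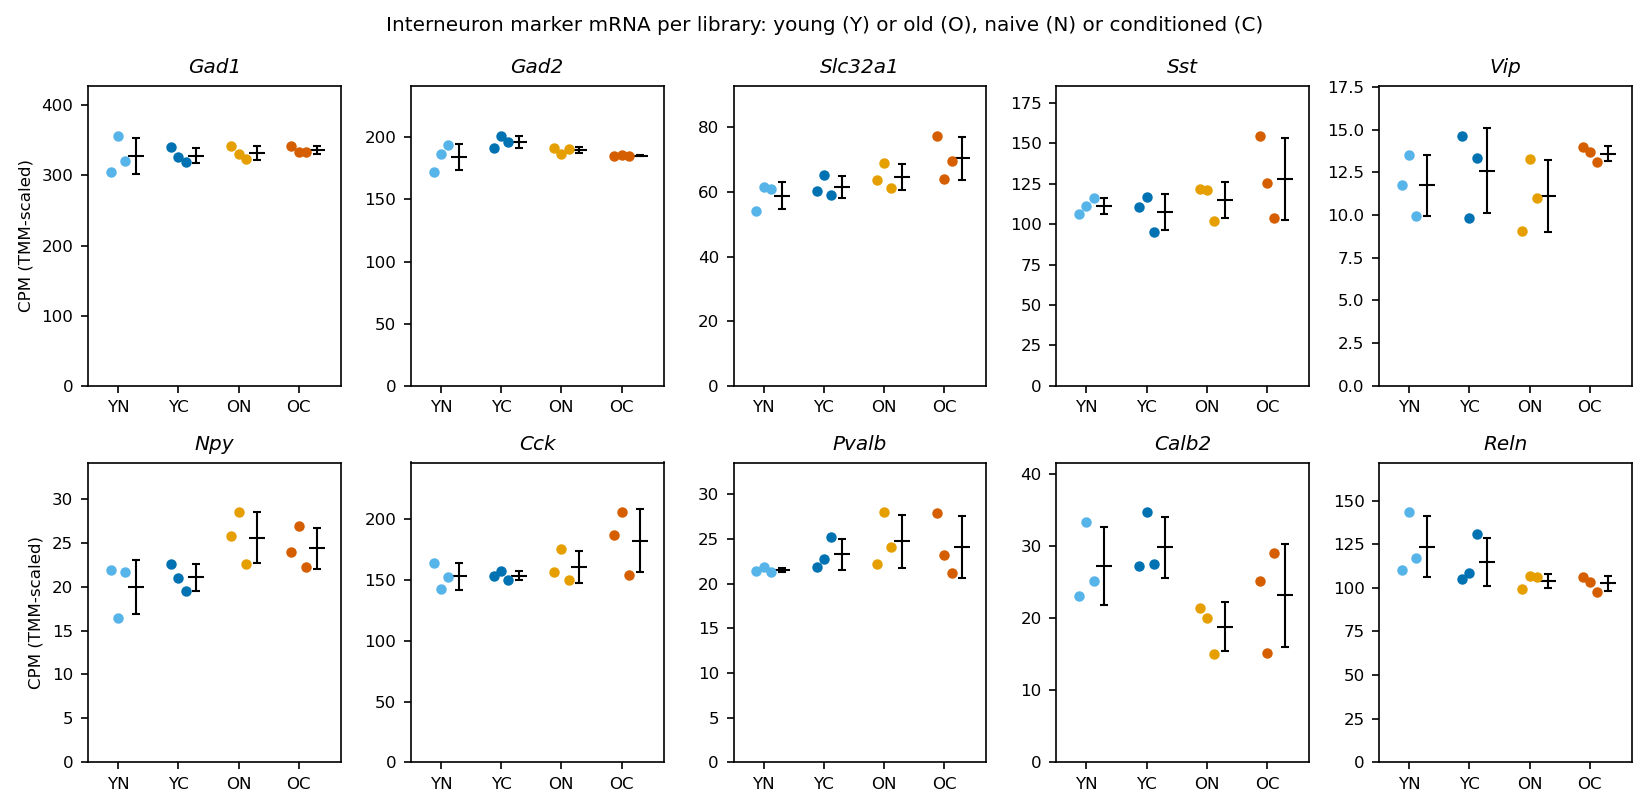
Level of each of the 10 genes in CPM (y axis, from 0) in the 12 RNA libraries, grouped by age and condition (x axis), with points for libraries and black marks for the mean and SD of 3. Gad1 and Gad2 are nearly level across all 12 libraries, Npy stands higher in old naive than young naive libraries, and Calb2 and Reln stand lower.

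The training comparison asks whether interneuron transcripts differed 30 min after conditioning. In young mice 0 of the 10 genes passed an edgeR quasi-likelihood adjusted p of 0.05, where 0.0278% of all tested genes did, and the members' smallest adjusted p was 0.776. In old mice 0 of 10 passed, against 0.0139% of all genes, with a smallest adjusted p of 0.705, and over both ages 0 of 10 passed, against 0.0764%, with a smallest adjusted p of 0.762. At an unadjusted p under 0.05 the counts were also 0 of 10 in each of the 3 comparisons, against 6.63%, 7.16% and 6.99% of all genes, and DESeq2 called 0. Over both ages the 10 differences had a median of 0.044 on the log2 scale, against a median near 0 (0.00038) over all genes. Positive differences numbered 9 of 10, beside 50.2% of all genes, and the 10 values come from the same libraries.

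For GABA synthesis the intervals are narrow. Over both ages the conditioned minus naive difference of Gad1 was 0.010 (SE 0.042, 95% interval -0.079 to 0.099) and that of Gad2 0.029 (SE 0.038, 95% interval -0.052 to 0.11) on the log2 scale. The fold of Gad1 thus had an interval of 0.947 to 1.07, and that of Gad2 0.965 to 1.08. Slc32a1 differed by 0.093 (95% interval -0.032 to 0.22). With upper-quartile scaling the difference of Gad1 turned negative, so it has no settled sign.

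Peptide and calcium-binding genes had wider intervals. Vip differed by 0.20 (95% interval -0.049 to 0.44), Calb2 by 0.21 (-0.090 to 0.51), Cck by 0.095 (-0.040 to 0.23) and Sst by 0.053 (-0.12 to 0.23). Pvalb differed by 0.036, Npy by 0.0067 (negative with upper-quartile scaling) and Reln by -0.067, the one negative value. In young mice alone the largest difference was 0.12 for Calb2, and all 3 conditioned libraries lay above the naive ones for Pvalb (log2 0.11, edgeR adjusted p = 0.870), as the groups did not overlap for 12.8% of all genes. In old mice the largest were 0.29 for Calb2, 0.29 for Vip and 0.18 for Cck (edgeR adjusted p = 0.767, 0.724 and 0.705). These values moved with single libraries: Calb2 was 0.098 without old conditioned 65 (and 0.56 with the choroid plexus score as covariate), Vip 0.16 without old naive 67, and Cck 0.087 without old conditioned 63. In old mice the one member whose groups did not overlap was Gad2, with conditioned libraries below the naive ones (log2 -0.034, edgeR adjusted p = 0.913), beside 12.8% of all genes. Old Sst differed by 0.15, and by -0.0027 without young naive 81 and old conditioned 61.

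The age comparison asks which of these transcripts differed between 2.5 and 15.5 months. Averaged over naive and conditioned mice, 0 of 10 passed (edgeR quasi-likelihood adjusted p under 0.05; 0.375% of all genes did), while 5 of 10 had an unadjusted p under 0.05, against 16.6% of all genes: Npy, Slc32a1 and Cck were higher in old mice, Calb2 and Reln lower. None of these 5 is a call after adjustment over all genes. The members' median was 0.076 on the log2 scale, against -0.0033 over all genes, with 7 of 10 positive beside 48.9% of all genes.

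Npy was 20.0 ± 3.08 CPM in young naive and 21.1 ± 1.54 in young conditioned mice, and 25.6 ± 2.92 and 24.3 ± 2.38 CPM in the matching old groups (SD, n = 3 each). Its old minus young difference was 0.28 (SE 0.088, 95% interval 0.098 to 0.47, edgeR adjusted p = 0.144), a fold of 1.22. Of the 12 libraries, young naive 81 was lowest and old naive 69 highest, and old naive 71 and old conditioned 65 lay below the highest young library. Slc32a1 had a difference of 0.16 (SE 0.059, edgeR adjusted p = 0.195), and Cck one of 0.16 (SE 0.064, edgeR adjusted p = 0.233). With the choroid plexus score as covariate the adjusted p of Slc32a1 was 0.0654, and with the nuclear RNA score as covariate its difference was 0.085. Sst had 0.15 (edgeR adjusted p = 0.376) and Pvalb 0.13 (edgeR adjusted p = 0.457). Sst differed by 0.020 with the nuclear RNA score as covariate.

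Calb2 was 27.2 ± 5.43 CPM in young naive and 29.8 ± 4.20 in young conditioned mice, and 18.8 ± 3.42 and 23.2 ± 7.14 CPM in the matching old groups (SD, n = 3 each). Its old minus young difference was -0.45 (SE 0.14, 95% interval -0.75 to -0.15, edgeR adjusted p = 0.151), a fold of 0.732. Old naive libraries all lay below the young naive ones, while 2 of the old conditioned libraries, 61 and 65, lay within the young range. Reln was 124 ± 17.2, 114.7 ± 13.9, 104 ± 4.08 and 103 ± 4.36 CPM in the same order, with a difference of -0.21 (SE 0.067, 95% interval -0.35 to -0.063, edgeR adjusted p = 0.160). Without young naive 81, the highest Reln library, the difference was -0.14. The adjusted p of Calb2 was 0.0616 with the nuclear RNA score as covariate (log2 -0.66), the smallest of any member in any setting tried. With the choroid plexus score as covariate the Calb2 difference was -0.29.

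Markers of other cell types that express Calb2, Reln or Cck differed in part with age, mostly in value only. Of 8 listed markers of Cajal-Retzius cells 6 were tested, and all 6 were lower in old mice in value, with a median of -0.45 on the log2 scale and 0 past the adjusted threshold. Their summed level was 31.6 to 40.3 CPM in young naive and 31.2 to 37.2 in young conditioned libraries, and 25.3 to 35.9 and 24.1 to 27.5 CPM in the matching old groups. Trp73, a gene of this list, ran from 2.03 to 7.56 CPM, while Lhx1 and Lhx5, also listed, were near 0, with 0 to 8 and 1 to 13 counts per library. The list also shares a gene with the interneuron subtype markers, so it is not particular to Cajal-Retzius cells. Of 8 measured immature neuron markers, 7 were lower in value and 3 passed: Dcx (log2 -0.59, edgeR adjusted p = 0.0208), Dpysl3 (-0.25, 0.0382) and Igfbpl1 (-2.21, 0.0483). Their summed level was 506 to 568 CPM in young naive and 420 to 506 in old naive libraries, but 519 to 539 in old conditioned and 530 to 534 in young conditioned ones. Mossy cell markers had a median of -0.018, with 0 of 7 past the threshold. Thalamus markers, from a region next to the hippocampus where Calb2 is also expressed, had a median of -0.28 with age in naive and 0.20 in conditioned mice, with 0 of 9 past it in either. Nuclear-retained RNAs had a median of -0.43 with age (1 of 7 positive) and choroid plexus markers one of -1.87 (0 of 16 positive), with 0 past the threshold in both lists. Pan-pyramidal markers, of cells that also express Cck, had a median of 0.16 with age, with 8 of 8 positive and 0 past the threshold. The part of these cells and transcripts in the age values was not tested beyond the covariate fits given above.

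GABA synthesis showed little age difference: Gad1 differed by 0.027 (95% interval -0.062 to 0.12) and Gad2 by -0.021 (-0.10 to 0.060) on the log2 scale, and Vip by 0.012 (-0.23 to 0.26). The fold of Gad1 had an interval of 0.958 to 1.08 and that of Gad2 0.932 to 1.04.

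**Figure D2:**
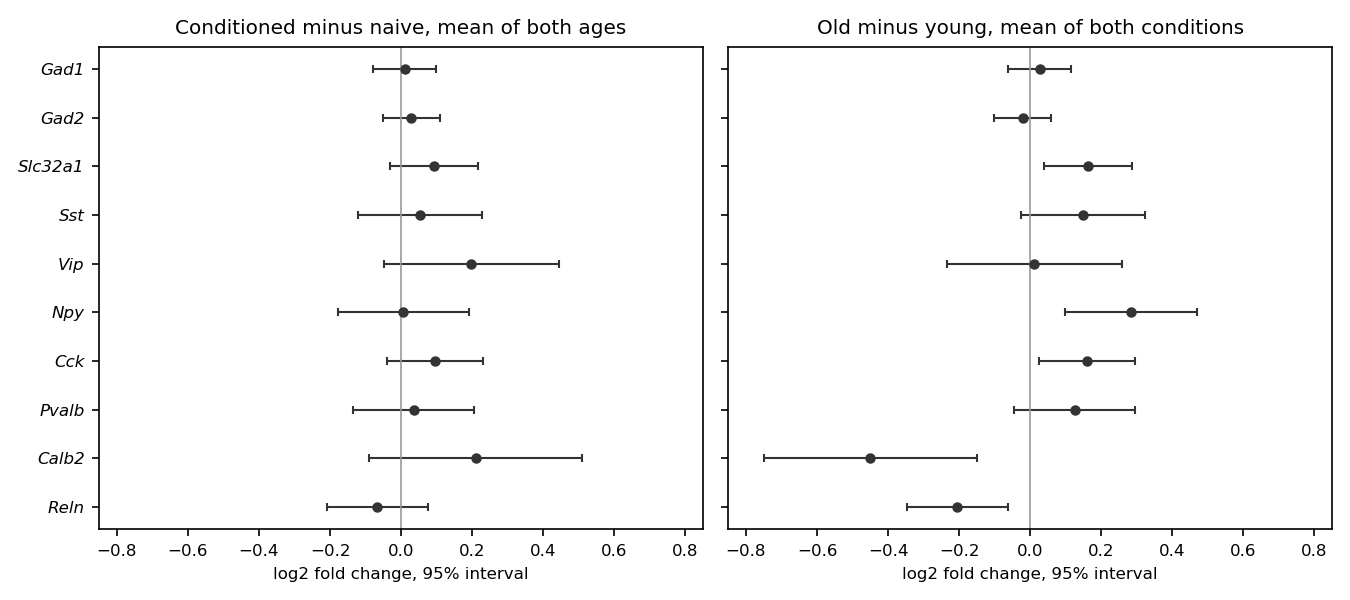
Difference of each gene on the log2 scale (x axis) with its 95% interval from the edgeR fit, for conditioned minus naive averaged over ages (left) and old minus young averaged over conditions (right). All 10 intervals cross 0 on the left, and those of Slc32a1, Npy, Cck, Calb2 and Reln do not on the right, though none of these passed adjustment over all genes.

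Taken by condition, age gave 0 of 10 calls in naive mice (0.0555% of all genes passed the edgeR threshold) and 0 of 10 in conditioned mice (0.0347%), with 3 of 10 at an unadjusted p under 0.05 in each (10.3% and 13.4% of all genes). In naive mice these 3 were Npy (log2 0.36, edgeR adjusted p = 0.335), Calb2 (-0.54, 0.385) and Reln (-0.25, 0.381). Without young naive 81 they were 0.23 for Npy, -0.36 for Calb2 and -0.13 for Reln. The naive groups did not overlap for these 3 and for Pvalb, 4 of 10, where 13.4% of all genes did not overlap. In conditioned mice the 3 genes were Cck (log2 0.25, edgeR adjusted p = 0.283), Slc32a1 (0.20, 0.334) and Sst (0.25, 0.365). Without old conditioned 61 the difference was 0.12 for Slc32a1 and 0.094 for Sst, and without old conditioned 63 that of Cck was 0.15. The conditioned groups did not overlap for Gad2 alone, 1 of 10, beside 23.1% of all genes, with old libraries lower (log2 -0.083, edgeR adjusted p = 0.514). Across all 6 libraries of an age, 0 of 10 members were free of overlap in the comparison by age (1.40% of all genes) and 0 of 10 in that by training (0.292%).

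Whether the training difference itself differed with age was tested as an interaction, old minus young. It gave 0 of 10 calls and 0.0% over all genes, with 0 of 10 members and 7.20% of all genes at an unadjusted p under 0.05. The values ran from -0.16 for Npy to 0.20 for Sst on the log2 scale, and the edgeR adjusted p from 0.743 to 0.982. Without old conditioned 61 the Sst value was 0.046, and without young naive 81 and old conditioned 61 that of Npy was -0.014. The 95% interval for Gad1 was -0.16 to 0.19 and that for Calb2 -0.43 to 0.77, so these data limit the difference far less for Calb2 than for Gad1.

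Other genes of the same cells were counted from lists that hold none of the 10. Of 19 transcription factor and lineage genes of interneurons, such as Lhx6, Sox6 and the Dlx genes, 0 passed in any of the 7 comparisons, and their median was 0.045 for training and 0.013 for age on the log2 scale. Sox6, which acts in somatostatin and parvalbumin cells, had the smallest p of them with age (log2 -0.23, SE 0.071, edgeR adjusted p = 0.141), at 36.9 ± 2.18 CPM in young naive and 34.2 ± 1.98 in young conditioned mice, and 29.6 ± 4.15 and 30.8 ± 1.65 CPM in the matching old groups (SD, n = 3 each). Erbb4, a neuregulin receptor gene, differed by -0.095. For training the smallest p values were those of Zeb2 (-0.065), Satb1 (0.059) and Nr2f2 (0.15).

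Among 34 tested markers of interneuron subtypes 0 passed in any comparison, with medians of 0.029 for training and 0.041 for age on the log2 scale. Cxcl14, a chemokine gene expressed by a class of interneurons, came nearest: 54.5 ± 5.46 and 54.7 ± 2.52 CPM in young naive and conditioned, 64.0 ± 5.56 and 68.3 ± 6.83 CPM in old naive and conditioned mice (SD, n = 3 each). Its 6 old libraries, from 60.3 to 76.1 CPM, lay above all but the highest of the young ones, and the difference was 0.28 (SE 0.065, edgeR adjusted p = 0.0735). Cplx1, a complexin gene, differed by 0.15 with age (edgeR adjusted p = 0.1) and by 0.14 with training (0.675). Crhbp, whose product binds corticotropin-releasing hormone, differed by 0.26 with age (edgeR adjusted p = 0.131). For training, Acan, a core gene of perineuronal nets, differed by -0.42 (edgeR adjusted p = 0.711) and the potassium channel gene Kcnc2 by 0.11.

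GABA uptake and breakdown, 9 genes, also gave 0 calls in any comparison, with medians of 0.038 for training and 0.0053 for age on the log2 scale. Glul, the glutamine synthetase of astrocytes, differed by 0.16 with age (SE 0.043, edgeR adjusted p = 0.1). The GABA transporter gene Slc6a13, expressed mainly outside neurons, differed by -0.33 with age and by 0.53 with training. Of the other cell type lists, calls with age fell on Aldoc of astrocytes (log2 0.26, edgeR adjusted p = 0.0230) and on C1qb (0.42, 0.0382) and Tmem119 (0.40, 0.0485) of microglia. With training over both ages, 8 of 13 early activity-regulated genes passed.

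Across the 12 libraries the members did not move as 1 block. Pearson's r of log2 CPM, given as a description, was 0.16 between Gad1 and Gad2, 0.51 between Gad1 and Slc32a1, and 0.12 between Gad2 and Slc32a1. Higher values were found between Npy and Cck (0.71), Slc32a1 and Sst (0.70) and Sst and Cck (0.68), and the lowest was -0.79 between Npy and Reln. These points share library depth and the 4 groups.

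The level of 7 nuclear-retained RNAs, such as Malat1 and Meg3, varied between libraries and was related to Gad1. The share of all genes related as strongly to a list is not given, so no relation here can be called particular to the gene named. Their mean log2 CPM ran from 8.59 in old conditioned 61 to 9.79 in young naive 79. In a family of 180 relations between 10 genes and 18 lists, Gad1 against this score had a Pearson r of -0.859 (n = 12, permutation p = 0.00035, adjusted 0.0423) and a Spearman rho of -0.902 (permutation p = 0.00018, adjusted 0.0324). Without young naive 79 and old conditioned 61, the libraries farthest from the median score, r was -0.814, and for deviations from the group means it was -0.901. Slc32a1 had an r of -0.769 (permutation p = 0.00344, adjusted 0.105) and a rho of -0.706 (0.0131, adjusted 0.236), and r was -0.432 without those 2 libraries, so its relation rests on them. Gad2 had an r of -0.086. Reln was related to the score of 8 pan-pyramidal markers with r = -0.830 (permutation p = 0.00047, adjusted 0.0423) and rho = -0.811 (0.00215, adjusted 0.129), and r was -0.831 without young naive 81 and old conditioned 61 and -0.683 for deviations from group means. Those 8 markers were all higher in old mice in value, with a median of 0.16 on the log2 scale and 0 past the threshold. The permutations moved libraries across the 4 groups, so their p-values do not separate a relation from differences between groups.

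**Figure D3:**
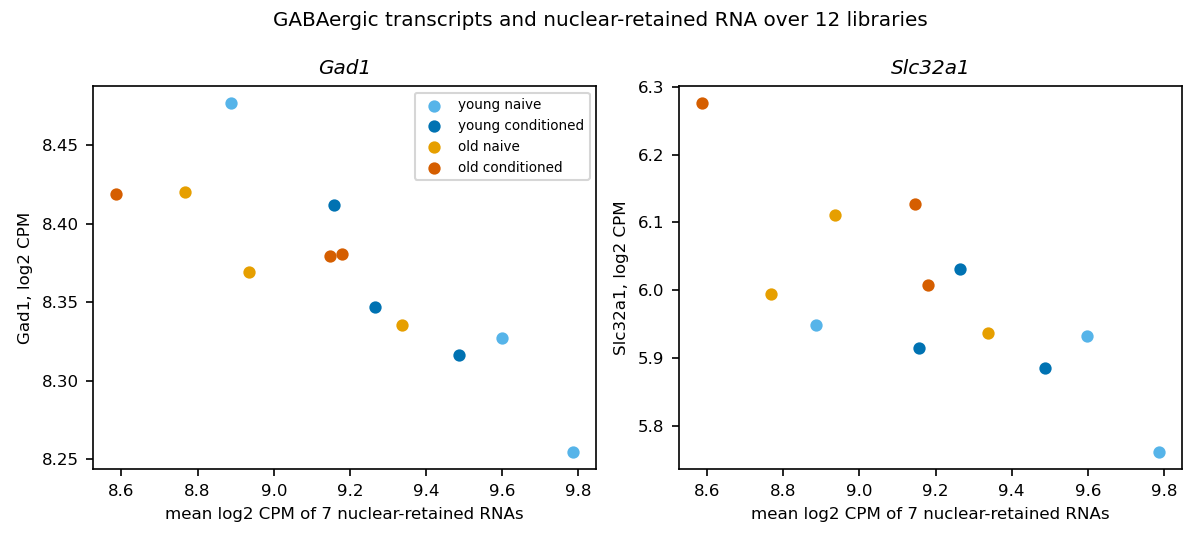
Log2 CPM of Gad1 (left) and Slc32a1 (right) on the y axes, which do not start at 0, against the mean log2 CPM of 7 nuclear-retained RNAs (x axis), 1 point per library coloured by group. Gad1 is lower where nuclear-retained RNA is higher (r = -0.859), while the relation of Slc32a1 weakens to r = -0.432 without the libraries at both ends.

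By likeness over the 12 libraries, the genes nearest to the mean of Gad1, Gad2 and Slc32a1, of 10414 candidates, were Rpl10 (Pearson r 0.923), Syt11 (0.917), Taf10 (0.917), Psap (0.904) and Cltb (0.901). None of these is a marker on the interneuron lists. The gene most alike to Sst was Egln2 (0.901), to Vip Cttnbp2nl (0.882), to Npy Mfsd6 (0.913) and to Cck Clip3 (0.939). For Pvalb it was Nagk (0.848), for Calb2 Tspan33 (0.901) and for Reln Ttc28 (0.921). These names are the highest of many candidates over 12 points and depend on the measure: of the 5 nearest to the GABA genes, 2 were shared with a ranking by Spearman's rho and 1 with a ranking of deviations from group means.

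H2A.Z replaces the core histone H2A in nucleosomes, often beside start sites, and the comparison asks whether its level at these genes differed with training or age. The 13 member peaks of the authors' deposited table (mm10) were compared with all 20213 as deposited, since the table gives log2 folds, p-values and FDR between groups and no value per library. Of the 13, 8 lay within 1 kb of the start of 7 genes: Gad1 (chr2:70561956-70562869), Gad2 (chr2:22621900-22622790), Slc32a1 (chr2:158610661-158611669), Npy (chr6:49822059-49822988), Cck (chr9:121494188-121494743, 951 bp away), Calb2 (chr8:110167860-110168503) and Reln (chr5:22343978-22344701 and chr5:22344833-22345414). The Pvalb peak (chr15:78203976-78204539) lay 1812 bp from the annotated start and covered the second start shown above. A further Gad1 peak lay 1270 bp downstream (chr2:70563433-70564107), and Slc32a1 had 2 more in its exons (chr2:158613764-158614298 and chr2:158614503-158614984), 3007 and 3746 bp away. The remaining peak carried the name of Npy from 205526 bp away, between genes (chr6:49616260-49617202).

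0 of 13 member peaks passed the authors' FDR of 0.05 for training in young mice, against 13.3% of all peaks in the authors' deposited table, and 0 of 13 in old mice, against 10.7%. For the 8 peaks within 1 kb the background in the authors' deposited table was 14.6% in young and 15.7% in old mice. For age it was 0 of 13 in naive and in conditioned mice, as for all peaks (0.0%). Of the 13 folds for training in the authors' deposited table, 11 were below 0 at each age, beside 81.1% of all peaks in young and 87.3% in old mice. Within 1 kb the members' median fold in the authors' deposited table was -0.59 in young mice and -1.04 in old mice, close to the medians of all 12562 such peaks, -0.63 and -1.02. The sign of the member folds is therefore that of most peaks.

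At the GABA synthesis genes, the authors' deposited table gives conditioned minus naive log2 folds of -0.33 in young and -0.18 in old mice for the Gad1 start peak, and -0.91 and -0.87 for Gad2. Of the 3 Slc32a1 peaks, 2 differed from most peaks in sign: the start peak had folds of 0.34 in young and 0.14 in old mice in the authors' deposited table, and the most distant peak 1.06 and 0.39. The Slc32a1 peak between them had -0.44 in young and -1.03 in old mice in the authors' deposited table. The implied standard errors of the start peak, from the fold and p-value of the authors' deposited table, were 0.53 and 0.79, so both intervals include 0. In old mice the deposited log2 levels of this peak were 5.84 in naive and 5.77 in conditioned mice, the opposite order to its fold. Levels of the old groups are offset from the folds in the authors' deposited table, so the sign at this peak in old mice is not settled. Of all peaks within 1 kb, 91.5% in young and 98.1% in old mice had folds below 0 in the authors' deposited table.

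Among the peptide genes, the Npy start peak had folds of -0.997 in young mice (FDR 0.165) and -1.52 in old mice (FDR 0.173) in the authors' deposited table, and it was called in 11 of the 12 libraries, the most of the 13. Cck had -0.036 and -0.31 in the authors' deposited table. Of the calcium-binding genes, Pvalb had -0.53 and -1.18, and Calb2 -0.47 in young and -1.91 in old mice (FDR 0.130) in the authors' deposited table. Both Reln peaks were below 0 as well, with -0.71 and -1.06 in young and -1.71 (FDR 0.126) and -1.20 in old mice in the authors' deposited table. The old-mouse values of Calb2, Reln and Npy are the lowest folds of the 13, and none passed.

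For age, the old minus young folds of the 13 peaks in the authors' deposited table ran from -0.74 to 0.71 in naive mice and from -1.09 to 0.40 in conditioned mice. Calb2 had 0.35 in naive and -1.09 in conditioned mice, and the Reln start peak 0.55 and -0.45, in the authors' deposited table. The comparisons share groups, so these values are not independent of each other.

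**Figure D4:**
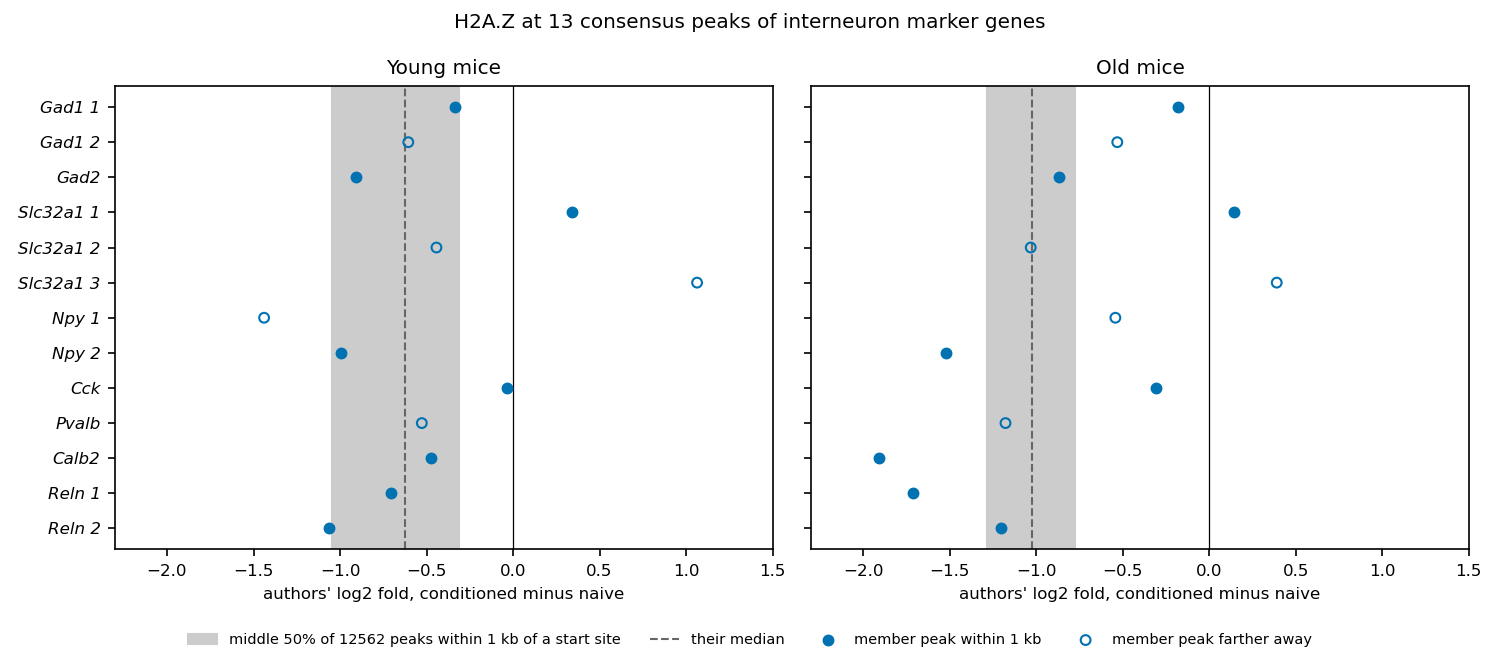
Authors' log2 fold of H2A.Z, conditioned minus naive (x axis), at the 13 member peaks (y axis, numbered along the gene where there are several), in young (left) and old (right) mice; the band holds the middle 50% of all peaks within 1 kb of a start and the dashed line their median. In both panels 11 of 13 points lie left of 0, and the Slc32a1 peaks numbered 1 and 3 lie right of it.

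The authors' deposited table also gives the distance of each peak to regions of 4 histone marks, whose origin the sources used here do not give. H2A.Z was mapped in bulk tissue, so neither it nor these marks can be assigned to interneurons. All 8 member peaks within 1 kb overlapped a region of H3K27me3, the mark of Polycomb repression, and lay wholly inside it. Of all such peaks in the authors' deposited table, 35.8% overlapped one, inside or in part. H3K4me3, the mark of active or poised starts, was at 6 of 8 (92.8% of all such peaks in the authors' deposited table), and both marks together at 6 of 8 (32.1%). H3K27ac, a mark of active regions, was at 3 of 8 (66.1% of all in the authors' deposited table): the start peaks of Gad1 and Gad2 and the second Reln peak. H3K4me1 was at 8 of 8 (86.8% of all in the authors' deposited table). Of all 13 peaks, 12 overlapped H3K27me3, the exception being the distant Npy peak. Within 3 kb of a start, 10 of 10 member peaks lay wholly inside H3K27me3, against 30.4% of all such peaks in the authors' deposited table.

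The related lists were alike in this mark. Within 1 kb, 21 of 21 peaks of the interneuron transcription factor genes and 28 of 32 of the subtype markers overlapped H3K27me3 in the authors' deposited table, but 2 of 8 of the GABA uptake and breakdown genes. By level, the 8 member peaks within 1 kb stood between the 6.14 and 33.9 percentile of all such peaks over the 4 groups in the authors' deposited table. The lowest was Calb2 in old conditioned mice, and the highest the Slc32a1 start peak in the same group, which was at the 10.8 percentile in old naive mice in the authors' deposited table. The Gad1 start peak ran from the 9.82 percentile in old naive to the 33.2 percentile in young conditioned mice in the authors' deposited table. A percentile ranks a peak among the peaks of its own group, so a higher one is not a gain of H2A.Z. The training folds of the Gad1 start peak were -0.33 in young and -0.18 in old mice in the authors' deposited table. That of the Slc32a1 start peak was 0.14 in old mice in the authors' deposited table. Of the 5 peaks farther than 1 kb, ranked among all such peaks, the Pvalb peak stood between the 54.6 and 66.8 percentile and the second Gad1 peak between the 54.6 and 64.3 percentile over the 4 groups in the authors' deposited table. The second Slc32a1 peak stood between 31.9 and 44.5, the third between 33.1 and 71.2, and the distant Npy peak between 0 and 10.2 in the authors' deposited table.

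**Figure D5:**
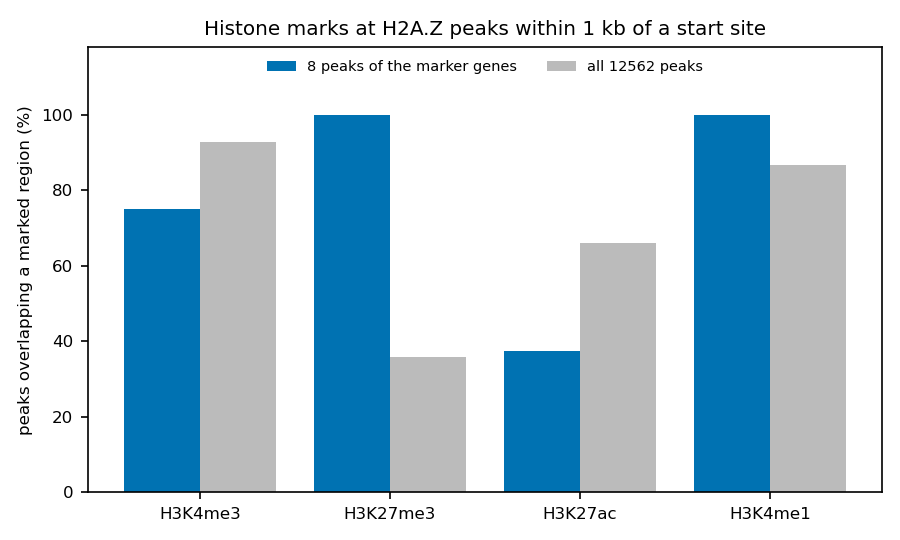
Share of H2A.Z peaks within 1 kb of a start site that overlap a region of each of 4 histone marks (y axis, percent, from 0), for the 8 member peaks (blue) and all 12562 peaks (grey). H3K27me3 is at 100% against 35.8%, and H3K27ac at 37.5% against 66.1%.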

How the data were processed

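RNA was sequenced in 12 hippocampal libraries and H2A.Z mapped in 12 immunoprecipitates, 3 per group. For RNA the authors deposited raw counts by gene symbol, and for H2A.Z 1 table of consensus peaks with log2 folds and log2 group levels. Its p-value and FDR columns are the authors'; distances to genes and marks and the number of libraries with a called peak (a score of 0 to 3 per group, deposited by the authors) were used as given. Per the submitters' processing notes the tools include HTSeq 0.6.1p2, MACS2 2.0.10, DiffBind 1.12.2 and edgeR 3.8.6, with builds mm9 and mm10; the sources used here do not give their settings or the strand setting of counting.

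RNA counts were fitted in R 4.3.3 with edgeR 4.0.16 (TMM, filterByExpr, 1 quasi-likelihood fit of 4 groups, Benjamini-Hochberg over 14405 genes, threshold 0.05). A prior count of 2 was added for log2 CPM. DESeq2 1.42.0 and the settings named in the closing section were alternatives; the fit was tested on simulated data. H2A.Z folds are given as conditioned minus naive or old minus young, with the group letter T of the table read as conditioned by exclusion; levels were compared across peaks within a group. Correlations used 100000 two-sided permutations (scipy 1.17.1). Genes are symbols as deposited, and overlapping or antisense transcripts were not separated. Of 66 library pairs 0 were identical (Spearman 0.986 to 0.996).

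The members and lists were chosen with earlier results of these data known. Genes named beside the 10 members follow a rule: genes of other lists with an adjusted p under 0.05, the 3 smallest p of each of the 3 related lists for training and for age, always Fos, C4b and Ttr, and the genes most alike. Outside it, Prox1, Wfs1, Drd2, Adora2a, Trp73, Lhx1, Lhx5, Malat1 and Meg3 were named as markers, and of the early genes that passed only Fos is given by name. Some genes that the rule names are not reported here.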

Additional observations from a re-analysis of the deposited data

How the results depend on the processing

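The count of members past the edgeR threshold was 0 in all 137 counts from 20 other settings: DESeq2, upper-quartile scaling, all genes with a count, a stricter filter, only the groups compared, each library left out in turn, and choroid plexus or nuclear RNA score as covariate; leaving out young naive 81 and old conditioned 61 together was chosen after seeing the data. Of 1370 member differences 1299 kept their sign, and 41 of 70 pairs of gene and comparison kept it throughout. The smallest adjusted p was 0.0616. Counts over all genes moved more: 0 to 16 (4 as reported) for training in young, 0 to 9 (2) in old, 7 to 30 (11) over both ages, 1 to 39 (8) for age in naive, 2 to 97 (5) in conditioned, 13 to 391 (54) over both conditions, and 0 to 1 (0) for the interaction. 0 member peaks passed at an authors' FDR of 0.1 or 0.01, and 10 rather than 8 lay within 3 kb of a start. Of the genes most alike to the 7 other members, 0 were shared under Spearman's rho and 1 under deviations from group means. No paired analysis was possible because the RNA libraries carry unique numbers and the peak table holds no values per library. With 3 libraries a group, the training differences of Vip, with the fewest reads, and Calb2, with a wide spread within groups, have SEs of 0.12 and 0.14 on the log2 scale over both ages.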
